A study of Mus musculus with 4 samples.

Results

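The SR splicing factors are described here through the adenosines of their transcripts that were read as N6-methyladenosine (m6A). The members were named by gene symbol as Srsf1, Srsf2, Srsf3, Srsf4, Srsf5, Srsf6, Srsf7, Srsf9, Srsf10 and Srsf11. A site counted as a member's when its chromosome, position and strand fell inside the span that the deposited lists give for that gene. By this rule 9 of the 10 genes had a feature in the lists, and Srsf11 was not analysed here. They held 1199 distinct sites of 881997 in the series. The 4 libraries came from mouse retinal organoids, eye-like tissue that stem cells form in culture, after 4 days of differentiation in medium with 0.1 µM AGN. The 2 wild-type (WT) libraries were of the Rx:GFP line, a stem cell line with a fluorescent reporter of an early eye field gene. The 2 knockout (KO) libraries were of a Mettl3 KO line that also carries a doxycycline-inducible HA-tagged METTL3, and the treatment label of all 4 libraries is "No". The labels do not say how many clones the KO line comprises, which stretch of Mettl3 is deleted, or whether libraries of a group came from separate cultures, so the spread between them may be technical.

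SR proteins carry RNA recognition motifs and a domain rich in arginine and serine. They bind exonic enhancers, recruit the splicing machinery to nearby splice sites, and in several cases also accompany mRNA to export and translation. Many SR genes hold a conserved "poison" exon whose inclusion sends the transcript to nonsense-mediated decay, by which the proteins limit their own level. METTL3 is the catalytic subunit of the methyltransferase that places most m6A in mRNA, and the nuclear m6A reader YTHDC1 is known to bind SRSF3 and SRSF10.

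Each library was made by GLORI, a chemical method in which unmethylated adenosine is deaminated and read as G while m6A is still read as A. The level of a site is its unconverted share, the reads with A over the reads with A or G, and its coverage is that total. The lists start at 15 reads of coverage, 5 unconverted reads and a level of 0.1, and their largest p is 0.004. A site that is missing from a list may have been below these limits or too thinly covered. The sources used here do not give the caller, so any further limits on listing are unknown. The 4 lists held 227298 and 288516 sites in the WT and 230299 and 215850 in the KO, at a median coverage of 38 to 41 reads. Mettl3 coverage was 0.977 and 0.779 times the median gene in the WT and 1.12 and 1.02 times in the KO, which checks nothing about the deletion while its extent is not given. Among eye field and retinal markers, Six6 had no site in any list, Rax had 20 and 35 sites in the WT and 0 in both KO lists, and the summed coverage of Six3, Lhx2 and Pax6 was 22.1 and 23.8 times the median gene in the WT against 4.88 and 5.20 in the KO. Pax6 alone stood at 2.15 and 2.17 in the WT and 2.52 and 2.18 in the KO. All 5 pluripotent markers had sites, and 3 (Pou5f1, Nanog and Utf1) had a coverage value in all 4 libraries. The summed coverage of these was 4.53 and 4.97 in the WT against 3.06 and 2.38 in the KO. Utf1 was called lower (limma, adjusted p = 0.0111). Zfp42 stood at 0.564 and 0.630 in the WT, with 0 sites in both KO lists. Dppa5a stood at 3.83 and 2.42 in the WT, and at 0.698 in KO 2 with no value in KO 1. Of 5 mesendoderm markers 3 had no site in any list, and of 6 midbrain and hindbrain markers 4 had sites. En1, Wnt1 and Pax2, with a value in all 4 libraries, had a summed coverage of 2.34 and 2.00 in the WT. In the KO their sum was 3.49 and 3.78. Of the 3 tested, Wnt1 was called higher (limma, adjusted p = 0.000322), and En1 (adjusted p = 0.226) and Pax2 (adjusted p = 0.973) were not called. Actb and Gapdh, read as housekeeping genes, had log2 coverage changes of -0.64 and -0.24, neither called. In such bulk samples, fewer cells of a type and less RNA per cell cannot be told apart. The part of these marker differences in the results below was not tested.

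The members' transcripts carried fewer well-covered sites of high level in the KO, and how many fewer depended on the coverage asked for. The members had 334 and 365 listed sites in the WT libraries and 258 and 368 in the KO libraries, so the totals of the groups overlap. The reads at these sites came to 47223 and 53181 in the WT and 26142 and 37712 in the KO. Over the whole lists the reads at sites were also fewer in the KO, with 15723044 and 21400899 in the WT and 14170405 and 13214893 in the KO. Of those with a coverage of at least 50, the WT libraries had 195 and 198 sites at levels from 0.1 to 0.2, and the KO libraries 139 and 198. From 0.2 to 0.3 there were 25 and 24 sites in the WT and 19 and 30 in the KO. At a level of at least 0.3, called high-level below, there were 14 and 18 sites in the WT and 3 and 3 in the KO. Here the groups did not overlap, and the KO sum was 0.188 times the WT sum, where over all genes it was 0.442 times (11770 and 17001 against 6102 and 6609 sites). At 100 or more reads, the members had 7 and 8 high-level sites in the WT and 1 and 1 in the KO, 0.133 times the WT sum beside 0.210 times over all genes. At that depth the groups did not overlap from 0.2 to 0.3 either, with 10 and 14 sites in the WT and 3 and 7 in the KO (0.417 times, beside 0.593 times over all genes). From a level of 0.5 up they had 3 and 3 against 0 and 1, 0.167 times beside 0.0572 times over all genes. At 20 or more reads, the members had 43 and 41 high-level sites in the WT and 25 and 33 in the KO, 0.690 times the WT sum beside 0.689 times over all genes. Of these, 26 and 19 in the WT and 8 and 15 in the KO had a gene value, and 17 and 22 against 17 and 18 a value that the lists give for a whole chromosome. The members' lower counts thus came with those of all genes, and no difference between the members and other genes was tested. With 2 libraries in each group an exact permutation test cannot give a two-sided p below 0.333, so these totals have no test of their own.

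**Figure D1:**
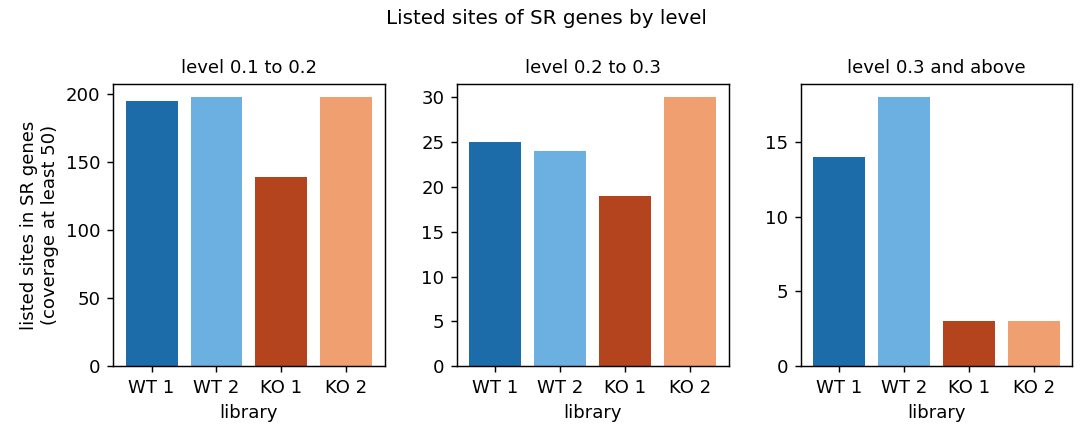
Number of listed sites in the 9 SR genes with a coverage of at least 50, in 3 ranges of the m6A level (panels, each with its own vertical axis from 0), with 1 bar for each library. From 0.1 to 0.3 the bars of the genotypes overlap at this coverage, and at 0.3 and above they stand at 14 and 18 for wild type and at 3 for each KO library.

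At a coverage of at least 50 the lower counts were spread over most of the genes, each with few such sites. Srsf2 had 3 and 4 high-level sites in the WT and 1 and 1 in the KO. Srsf10 had 3 and 3 in the WT and 0 in both KO lists. Srsf4 had 2 and 3 in the WT against 0 and 1. Srsf6 had 2 and 1 against 1 and 0, and Srsf3 had 2 and 1 against 1 and 1. With at least 4 high-level sites over the 4 libraries, Srsf2, Srsf4 and Srsf10 had both KO counts below both WT counts and Srsf3 and Srsf6 did not, where 39% of the 4371 genes with as many sites had both KO counts below and 2.59% both above. Srsf1 and Srsf5 each had 1 high-level site in each WT library, Srsf7 had 0 and 3, and Srsf9 had 0 and 1. None of these genes had any in the KO lists, and all had too few sites to enter that share. The Srsf1 sites were in no other list, nor was the Srsf5 site of WT 2. At 20 or more reads the counts of Srsf10 were 11 and 8 in the WT and 6 and 9 in the KO. Srsf4 had 5 and 8 against 8 and 2, and Srsf3 8 and 4 against 3 and 7. Srsf1 had 5 and 2 against 0 and 6, Srsf6 3 and 3 against 3 and 2, and Srsf7 0 and 6 against 2 and 4. All of these overlap. Srsf2 (4 and 5 against 2 and 1), Srsf5 (6 and 3 against 1 and 2) and Srsf9 (1 and 2 against 0 and 0) did not. The share over all genes was not taken at this coverage, so the genes that did not overlap cannot be set against other genes. Among thinly covered KO sites, Srsf3 had a level of 1.00 at 27 reads at 29255213 in KO 1 (0.302 at 43 reads in WT 2). At 29255111 it had 0.860 at 43 reads in KO 2 (0.119 at 201 reads in WT 2). Both sites have a value given for a whole chromosome and were picked out after their values were seen. The edgeR quasi-likelihood test over 4371 genes called 0% lower and 0% higher at an adjusted p under 0.05, and at an unadjusted p under 0.05 there were 583 genes lower and 16 higher. On simulated counts of this size the test recovered none of the changes put in, so the absence of calls carries no information. Of the 5 members that entered it (Srsf2, Srsf3, Srsf4, Srsf6 and Srsf10), the median fitted log2 change was -1.69, beside -1.38 over all genes tested, and the smallest adjusted p was 0.292, for Srsf10. With a coverage minimum of 20 in place of 50 the fitted change went from -4.64 to -0.34 in Srsf10, from -2.07 to -0.37 in Srsf4, from -1.38 to -0.25 in Srsf6 and from -0.53 to -0.26 in Srsf3, and from -1.69 to -1.51 in Srsf2. The fitted values of genes with a KO count of 0 depend on the test's prior count. DESeq2 on the same counts also called 0 genes, with 130 lower and 0 higher at an unadjusted p under 0.05. With edgeR's likelihood ratio test, an alternative added after the data were seen, 8.44% of genes were called lower and 0.0458% higher, and Srsf10 was the member called (adjusted p = 0.0463).

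High-level member sites were listed again in the other WT library in about as many cases as not, and rarely in a KO library. Of the 14 in WT 1, 8 (57.1%; Wilson 95% interval 32.6 to 78.6%) were listed at some level in WT 2, and of the 18 in WT 2, 8 (44.4%; 24.6 to 66.3%) were listed in WT 1. None of the 14 in WT 1 was listed in either KO library, where the interval reaches up to 21.5%. Of the 18 in WT 2, 1 was listed in KO 1 and 2 in KO 2. Over the other protein-coding genes 46.6% of the high-level sites of WT 1 were listed again in WT 2, and 7.30% and 7.41% in the KO libraries. Those of WT 2 were listed again in 38.1% of cases in WT 1, and in 6.52% and 6.32% in the KO libraries. The 3 high-level sites of KO 1 were listed in no other library, and 1 of the 3 of KO 2 was listed in WT 2, beside shares of 7.38% to 8.69% for the KO high-level sites of other genes in each other library. That site lies in Srsf2 (chromosome 11, position 116743514), with a level of 0.343 at 178 reads in WT 2 and 0.410 at 78 reads in KO 2. It was chosen for mention after its values were seen. All these intervals are over numbers of sites and cover counting error only, since sites of the same gene share their source and are not replicates. The intervals of single levels given further below count reads. They too cover counting error only, since reads may be PCR copies.

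Most listed member sites, 1087 of the 1199, stood in 1 library only, and this held for both genotypes. The WT libraries shared 40 member sites, 6.07% of their union, with 12.0% of the sites of WT 1 and 10.96% of those of WT 2. The KO libraries shared 16 (2.62% of the union, 6.20% and 4.35% of their lists). Pairs of unlike genotype shared 2.81% to 4.12% of their unions. Over all genes the WT pair shared 5.77%, the KO pair 2.59% and pairs of unlike genotype 2.49% to 2.59%. The lists give 2 kinds of gene coverage value, one of the gene and one that is the same over a whole chromosome, the latter read here as marking sites outside annotated transcripts. Among sites with a gene value the WT pair shared 34 (9.77% of the union), and the other pairs 2.48% to 3.69%, beside 6.83% and 2.75% to 2.91% over all genes. Among sites with a chromosome-wide value the WT pair shared 6 (1.93%), and the other pairs 2.33% to 4.81%, beside 1.88% and 1.27% to 1.34% over all genes. The overlap of the members' WT pair was the largest of the pairs at sites with a gene value. At chromosome-wide sites, where it rests on 6 sites, it was the smallest, while over all genes it was the largest there too. The members' sites carried gene values in 195 and 187 cases in the WT and in 143 and 263 cases in the KO.

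The 39 sites that both WT libraries list at 20 or more reads give the clearest view of what the KO lists lack. Of these, 31 (79.5%; Wilson 95% interval 64.5 to 89.2%) were in neither KO list, beside 83.4% of 21629 such sites over the other protein-coding genes. In the reverse direction, 10 of the 16 sites shared by both KO libraries were in neither WT list (62.5%; 38.6 to 81.5%), beside 72.9% over the other protein-coding genes. The first share of the members is near its background, and the interval of the second covers it. The 31 absent sites had mean WT levels from 0.109 to 0.978 with a median of 0.2005, and 11 of them were at 0.3 or above. The 8 that also appeared in a KO list had levels from 0.127 to 0.259 with a median of 0.194, so the medians were close, and a range widens with the number of sites. All 11 shared sites with a mean WT level of at least 0.3 were therefore absent from both KO lists (interval 74.1 to 100%), beside 86.5% over the other protein-coding genes, and no site shared by the KO libraries reached a mean level of 0.3, where the other protein-coding genes had 1210 such sites with 73.7% in neither WT list. Of the 34 shared WT sites with a gene value, 30 were absent (88.2%), beside 84% over the other protein-coding genes, and of the 11 shared KO sites with a gene value 7 were in neither WT list, beside 74.2%. Of the 5 shared WT sites with a chromosome-wide value 1 was absent (20.0%; 3.62 to 62.4%), beside 74.1%. Sites of the same gene are not replicates and the intervals cover counting error only, so a difference from other genes was not tested. Of the 5 such sites that both KO lists hold, 3 were absent from the WT lists, beside 56.6%. The 31 absent sites lay within 1000 bases of the annotated 3′ end in 9 cases and in the last 20% of the span in 15, and for the 8 listed in a KO library these counts were 2 and 2.

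**Figure D2:**
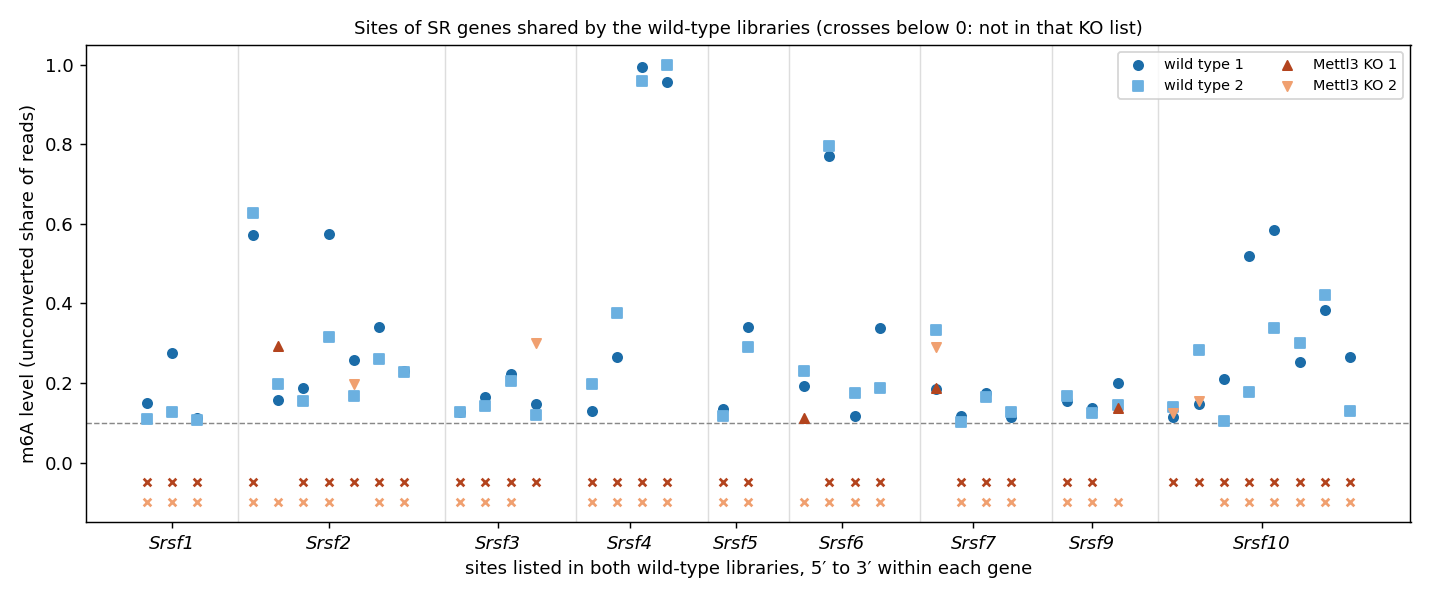
m6A level (vertical axis, unconverted share of reads) of the 39 sites of SR genes that both wild-type libraries list at 20 or more reads, ordered 5′ to 3′ within each gene, with 1 symbol for each library. Crosses below 0 mark sites missing from a KO list, and the dashed line is the lowest level listed, 0.1. The 11 sites whose wild-type mean is 0.3 or above have crosses for both KO libraries.

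Whether the KO libraries could have shown these sites was judged from gene coverage. The KO coverage expected at a site was its WT coverage times the ratio of the gene's KO to WT coverage, taking the lower of the values from both WT libraries. As a check, sites of all genes were taken that both WT libraries and the KO library list, with 50 or more reads expected there. Observed KO coverage was set against the mean of both values, not the lower. The median was 0.984 times this mean in KO 1 (1431 sites, 5th to 95th percentile 0.504 to 1.66). In KO 2 it was 0.929 times (1408 sites, 0.424 to 1.58). The members had only 1 such site in KO 1, at 0.518 times, and 2 in KO 2, with a median of 1.03 times. Sites with fewer reads expected were not checked. All sites of the check had to be listed to be counted, and observed coverage was not compared with the lower value. Sites with a chromosome-wide value have no expected coverage and were left out. Without them, and at any expected coverage, 30 of 34 member sites were already absent (88.2%). Where 50 or more reads were expected in each KO library, 23 of 26 were in neither KO list (88.5%, interval 71.0 to 96.0%). The share over the other protein-coding genes was 81.1%. The same limit in the reverse direction left 9 sites shared by the KO libraries, of which 6 were in neither WT list, beside 66.4%. The lowest level that the limits seen in the lists admit at each expected coverage is given below as the listing limit. For the sites of individual genes that follow, the 3 with the highest mean WT level were taken in each gene. Positions are those of the lists, whose gene spans differ from GRCm38 although the submitters' processing notes name mm10.

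Srsf4 held the sites of highest level. The gene (ENSMUSG00000028911, chromosome 4, 131600928 to 131629017, plus strand) encodes a long SR protein with an extended arginine-serine domain. Its site at 131628802, 215 bases before the annotated 3′ end, had a level of 0.993 at 136 reads in WT 1 (Wilson 95% interval 0.960 to 0.999) and 0.958 at 191 reads in WT 2 (0.920 to 0.979). Nearly every transcript copy read there was unconverted in both WT libraries, and neither KO list holds the site. Expected KO coverage was 182 and 143 reads, with listing limits of 0.104 and 0.105. The site at 131628998, 19 bases before the end, had levels of 0.957 at 23 reads and 1.00 at 37 reads, and the expected KO coverage was 31 and 24 reads with limits of 0.161 and 0.208. At 131628481 the levels were 0.265 at 226 reads and 0.376 at 245 reads, with 255 and 200 reads expected in the KO. A further WT-shared site, at 131628475, had 0.131 and 0.197, and was likewise in no KO list. These 4 sites lie within 523 bases. The KO libraries did list other adenosines in the last 550 bases of Srsf4, 6 in KO 1 and 5 in KO 2, beside 6 and 4 listed sites in the WT, so reads reached this stretch. Among them, the KO 2 site at 131628568 had a level of 0.840 at 125 reads and was in no other list, and WT 1 had a site of 0.868 at 91 reads at 131628600 that was in no other list either. Both were picked out after their values were seen. The highest site shared by the KO libraries and in no WT list, at 131628296, had 0.121 at 66 reads and 0.281 at 32 reads.

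Srsf6 had 1 site of high level with a low spread. The gene (ENSMUSG00000016921, chromosome 2, 162773448 to 162779041, plus strand) encodes an SR protein that acts in alternative splicing. At 162776713, 2328 bases before the annotated 3′ end, the level was 0.770 at 396 reads in WT 1 and 0.794 at 379 reads in WT 2, a mean of 0.782 ± 0.017 (SD, n = 2). Expected KO coverage was 316 and 226 reads, the listing limits were 0.101 and 0.102, and neither KO list holds the site. At 162778683 the WT libraries differed, with 0.338 at 71 reads and 0.189 at 122 reads, and the site was in no KO list. At 162774573, a site with a chromosome-wide value, the levels were 0.194 and 0.229 in the WT and 0.111 at 63 reads in KO 1. The KO libraries shared a site at 162775204, also with a chromosome-wide value, at levels of 0.148 and 0.231, and no WT list holds it.

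Srsf2 had high-level sites at its start and along its length. The gene (ENSMUSG00000034120, chromosome 11, 116740727 to 116743920, minus strand) encodes SC35, a protein of nuclear speckles and a known regulator of exon inclusion. Its site at 116743844, 76 bases after the annotated start, had 0.571 at 280 reads in WT 1 (0.513 to 0.628) and 0.628 at 234 reads in WT 2 (0.565 to 0.688). At 116742766 the levels were 0.573 at 75 reads and 0.315 at 92 reads, intervals that do not overlap (0.461 to 0.679 and 0.229 to 0.416). At 116741760 they were 0.340 at 215 reads and 0.261 at 360 reads. All 3 were absent from both KO lists, with expected KO coverage of 195 and 142, 75 and 54, and 214 and 156 reads. The site of highest mean coverage among those that both WT libraries share, at 116741271, was singled out after its values were seen. It had 0.230 at 3580 reads and 0.227 at 5065 reads, and it was in neither KO list at an expected 3562 and 2592 reads and listing limits of 0.100. Several Srsf2 sites were listed in both genotypes, and those given here were picked out after their values were seen. At 116743127 the level was 0.105 at 1196 reads in WT 1, 0.116 at 945 reads in KO 1 and 0.108 at 636 reads in KO 2, and WT 2 did not list it. The WT-shared site at 116742396 had 0.259 and 0.167 in the WT and 0.198 at 86 reads in KO 2. That at 116743438 had 0.157 and 0.197 in the WT and 0.293 at 58 reads in KO 1. Of the sites shared by the KO libraries alone, the highest in Srsf2, at 116743547, had 0.241 at 58 reads and 0.115 at 52 reads. Mettl23 and Mfsd11 lie on the opposite strand at this locus.

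Srsf10 held a cluster. The gene (ENSMUSG00000028676, chromosome 4, 135583058 to 135597219, plus strand) encodes a protein that represses splicing when it is dephosphorylated, as in heat shock and mitosis. Within 153 bases, from 135594587 to 135594740, 4 sites were listed in both WT libraries. The 3 of highest level were 135594672 (0.583 at 36 reads and 0.338 at 65 reads), 135594740 (0.382 at 89 reads and 0.420 at 131 reads) and 135594587 (0.520 at 25 reads and 0.176 at 34 reads). The remaining site, at 135594726, had 0.253 at 99 reads and 0.299 at 137 reads. None of the 4 was in a KO list, and KO 2 listed 1 other site in the stretch. Since the stretch is bounded by the WT-shared sites, its count of WT sites is no measure of the difference. At 135594740 the expected KO coverage was 89 and 59 reads, with limits of 0.101 and 0.102, whereas at 135594587 it was 25 and 17 reads with limits of 0.2 and 0.294, above the 0.176 of WT 2. Depth therefore limits the last site in the KO libraries. Near the start of the gene, at 135583521, a low level recurred across genotypes, with 0.114 at 656 reads and 0.140 at 981 reads in the WT and 0.125 at 431 reads in KO 2. The WT-shared site at 135587006, with a chromosome-wide value, had 0.148 and 0.283 in the WT and 0.154 at 78 reads in KO 2. Both were picked out after their values were seen. The highest site that only the KO libraries share, at 135585907 and with a chromosome-wide value, had 0.208 at 24 reads and 0.314 at 35 reads.

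**Figure D3:**
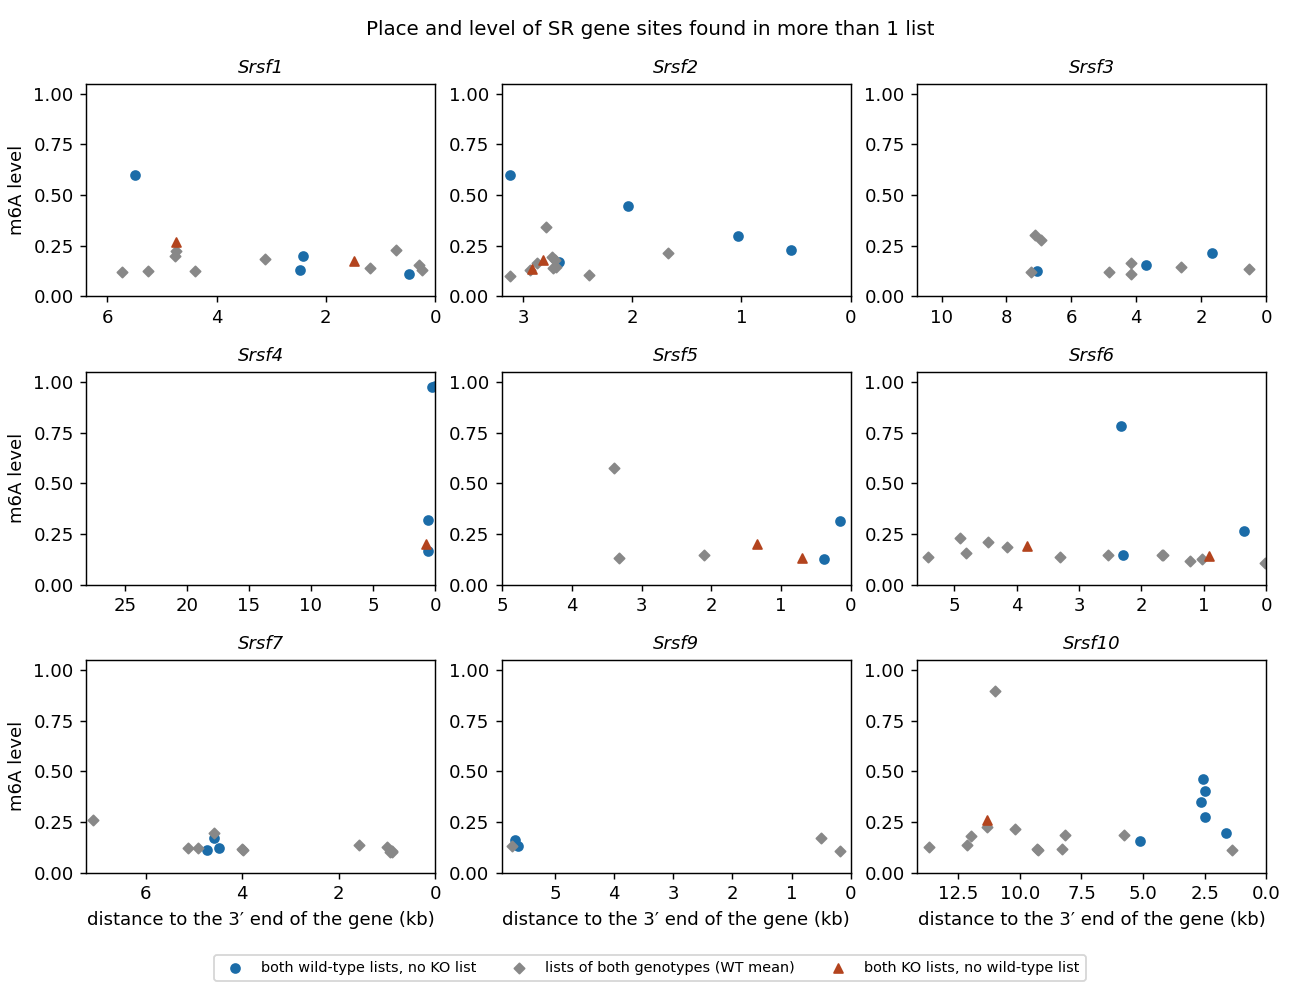
Level (vertical axis) against distance to the annotated 3′ end in kilobases (horizontal axis, 5′ on the left) of the SR gene sites found in more than 1 list at any coverage, with 1 panel for each gene. Circles are the mean of both wild-type libraries, triangles the mean of both KO libraries, and diamonds the wild-type value or mean of sites listed in both genotypes. The circles show the Srsf4 sites at its 3′ end, the Srsf2 site at its start, the Srsf6 site mid-gene and the Srsf10 cluster.

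Srsf5 and Srsf3 had deeply covered sites of lower level. Srsf5 (ENSMUSG00000021134, chromosome 12, 80992278 to 80997281, plus strand) encodes a splicing activator related to SRSF4 and SRSF6. Its site at 80997122, 159 bases before the annotated 3′ end, had 0.339 at 542 reads and 0.291 at 505 reads, and that at 80996897 had 0.135 at 452 reads and 0.116 at 602 reads. Neither was in a KO list, with 362 and 231 reads expected at the first. The KO libraries shared a site at 80995940 with 0.216 and 0.179. Srsf3 (ENSMUSG00000071172, chromosome 17, 29251602 to 29262347, plus strand) encodes the smallest SR protein, which also takes part in mRNA export and polyadenylation. At 29260665 it had 0.223 at 3810 reads (0.210 to 0.237) and 0.204 at 4058 reads (0.192 to 0.217), a mean of 0.214 ± 0.014 (SD, n = 2). The KO libraries were expected to cover it with 4067 and 2703 reads, at listing limits of 0.100, and did not list it. At 29258658 the levels were 0.164 and 0.143 at 140 reads each, also in no KO list. At 29261834 they were 0.147 and 0.120 in the WT, and KO 2 listed 0.3 at 30 reads, whose interval of 0.167 to 0.479 overlaps those of the WT.

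The shared sites of Srsf1, Srsf7 and Srsf9 stayed below a mean WT level of 0.3 where their coverage was at least 20. Srsf1 (ENSMUSG00000018379, chromosome 11, 87938199 to 87944581, plus strand) encodes the founding SR protein, which selects splice sites and is a known oncoprotein. Its sites at 87942163 (0.275 at 51 reads and 0.126 at 87 reads), 87942104 (0.15 at 293 reads and 0.110 at 382 reads) and 87944101 (0.111 and 0.107) were in neither KO list. The last had 43 and 30 reads expected in the KO with limits of 0.116 and 0.167, both above its WT levels, so its absence is not informative at this depth. Depth also limits 87942163, with 49 and 34 reads expected. Its listing limits were 0.122 and 0.147, and that of KO 2 lies above the 0.126 of WT 2. At 87942104 the limits were 0.103 and 0.102, close to the 0.110 of WT 2. The KO libraries shared a site at 87939832, with a chromosome-wide value, that had 0.185 at 27 reads and 0.350 at 20 reads. Srsf9 (ENSMUSG00000029538, chromosome 5, 115465236 to 115471139, plus strand) encodes a short SR protein. Its sites at 115465465 (0.155 and 0.167) and 115465516 (0.136 and 0.124) were absent from the KO lists. That at 115470633, with a chromosome-wide value, had 0.199 and 0.145 in the WT and 0.138 at 326 reads in KO 1. Srsf7 (ENSMUSG00000024097, chromosome 17, 80507509 to 80514736, minus strand) encodes an SR protein with a zinc knuckle that serves as an export adaptor. Its sites at 80512088 (0.176 and 0.164) and 80511997 (0.115 and 0.126, with a chromosome-wide value) were in no KO list.

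Srsf7 held the only member site in all 4 lists, at 80514600, 136 bases after the annotated start. This site has a chromosome-wide value, the kind read here as marking sites outside annotated transcripts. Its level was 0.184 at 38 reads and 0.333 at 60 reads in the WT, and 0.188 at 69 reads and 0.290 at 31 reads in the KO. The values of the groups overlap. Over the 1557 sites in all 4 lists at 20 or more reads, the edgeR quasi-likelihood test called 2.57% lower and 0% higher in the KO. The Srsf7 site was not called, with a log2 change of the odds of -0.33 and an adjusted p of 0.966. The change was 0.36 without WT 2 and 0.16 without KO 1. Pooled over each gene's sites, 5.24% of 821 genes were called lower and 0.365% higher, and Srsf7, with the same site, was not called (adjusted p = 0.981). A comparison limited to sites in all 4 lists can hold no site that fell below the listing limits.

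Gene coverage, the authors' mean signal over a gene, was given as a multiple of the median of genes with a value in all 4 libraries. Srsf2 stood at 18.6 and 19.5 in the WT and 17.3 and 14.7 in the KO, and Srsf3 at 18.7 and 17.8 against 19.0 and 14.8. These were the most deeply covered members, and the values of Srsf3 overlap between genotypes. Srsf1 stood at 8.96 and 9.80 against 8.08 and 6.55, and Srsf9 at 7.79 and 10.1 against 8.17 and 8.01. Srsf7 had 6.70 and 6.39 against 6.04 and 4.82. Srsf6 had 4.81 and 4.78 against 4.25 and 3.56. Srsf5 had 5.58 and 5.61 against 4.30 and 3.20, the widest gap among the members. Srsf10 had 3.61 and 4.32 against 3.39 and 2.64, and Srsf4, the least covered, had 1.75 and 1.97 against 2.19 and 2.01. In 6 of the 9 genes (Srsf1, Srsf2, Srsf5, Srsf6, Srsf7 and Srsf10) both KO values lay below both WT values, as in 28.9% of all genes tested, and in Srsf4 both lay above, as in 24.2%. KO 2 had the lower KO value in all 9 genes.

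**Figure D4:**
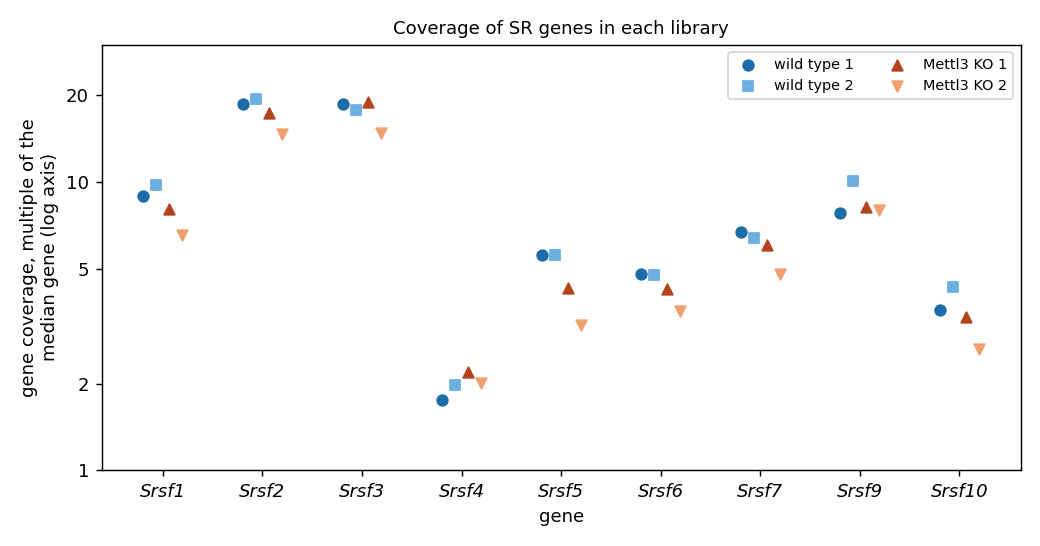
Gene coverage of the 9 SR genes, divided by that of the median gene (vertical axis, log scale), with 1 symbol for each library. Srsf2 and Srsf3 lie between 14.7 and 19.5, Srsf4 near 2, and both KO symbols of Srsf5 lie below both wild-type symbols.

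By limma on the log2 scale, no member's coverage change passed an adjusted p of 0.05, where 2.47% of the 9244 genes tested were called lower and 2.19% higher. Srsf5 had the largest value, with -0.59 ± 0.19 (SE, adjusted p = 0.0932), which was -0.38 without KO 2 and -0.81 without KO 1. Srsf10 followed with -0.40 ± 0.19 (adjusted p = 0.243), from -0.22 without KO 2 to -0.58 without KO 1, and Srsf1 with -0.36 ± 0.18 (adjusted p = 0.262). The change was between -0.30 and -0.12 in Srsf6, Srsf7, Srsf2, Srsf9 and Srsf3, with the sign of Srsf9 turned without WT 2 and that of Srsf3 without KO 2, and 0.18 ± 0.17 in Srsf4 (adjusted p = 0.594). The members' median was -0.28, beside -0.02 over all genes tested. The calls over all genes fell from 430 to 229 without WT 2, 87 without KO 1 and 58 without KO 2. Where only genes with a mean coverage above the median were tested, Srsf5 was called lower (adjusted p = 0.0251). That setting tested fewer genes and yet called more of them than the 430 of the main fit. The count stands in the section on processing below, so the Srsf5 call came with a general rise in calls.

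The gene's own conversion rate gives a readout over all adenosines of a transcript, listed or not. Srsf5 had 4.68% and 4.53% of its adenosine reads unconverted in the WT and 2.47% and 2.85% in the KO. Srsf4 had 5.38% and 4.80% in the WT and 3.37% and 4.03% in the KO. Srsf2 had 2.95% and 2.90% against 2.19% and 2.58%, and Srsf9 2.68% and 2.56% against 2.28% and 2.20%. In these 4 of the 9 genes both KO values lay below both WT values, as in 47.7% of the 9244 genes tested, and in no member did both lie above, as in 4.07%. The other 5 members lay between 2.12% and 3.56% in the WT and between 2.10% and 3.18% in the KO. These values include background conversion failure, and the libraries' median gene conversion was 96.1% and 96.2% in the WT and 97.1% and 96.6% in the KO. On the log2 scale, centred on each library's median, Srsf5 had a change of -0.49 ± 0.15 (SE, limma, adjusted p = 0.362) and Srsf4 one of -0.16 ± 0.15 (adjusted p = 0.632). The other 7 members had positive values, with a members' median of 0.18 beside 0.04 over all genes tested, and 6 of the 7 turned negative without centring. Limma called 0% of the 9244 genes lower and 0% higher at an adjusted p under 0.05, with 732 lower and 453 higher at an unadjusted p under 0.05.

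Other genes of the pathway were read beside the members. Of 32 genes that encode SR-related proteins, SR kinases and import factors, factors of nonsense-mediated decay and the reader YTHDC1, 30 had listed sites and 26 had a coverage test. By limma, 1 was higher in the KO and 0 were lower, beside 2.19% and 2.47% of all genes tested. That gene was Ythdc1, whose coverage was 1.64 and 1.60 times the median gene in the WT and 2.48 and 2.99 times in the KO, a log2 change of 0.75 ± 0.18 (SE, adjusted p = 0.0350). Both KO values of Ythdc1 lay above both WT values, as in 24.2% of all genes tested. Of the members whose proteins its product binds, Srsf3 had -0.12 ± 0.18 (adjusted p = 0.749) and Srsf10 -0.40 ± 0.19 (adjusted p = 0.243), and neither passed the test. Of 152 sites of the 32 genes listed in both WT libraries at 20 or more reads, 122 were in neither KO list (80.3%). Over all protein-coding genes other than the members the share was 83.4%. By group the counts were 80 of 102 for SR-related genes, 20 of 25 for kinases and import factors, 18 of 19 for decay factors and 4 of 6 for Ythdc1.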

How the data were processed

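The members and lists were chosen with earlier results of these data known. The authors deposited 1 list of called m6A sites per library, with counts of unconverted and total reads, the level as a fraction, a p-value, and a gene coverage signal and conversion fraction. Per the submitters' processing notes the build was mm10; aligner and caller are not given in the sources used here. The deposited p matched a one-sided binomial p within 0.1 log10 units for 98.0% of entries, which set the listing limits. Repeated entries (28 to 53 per list) were collapsed. Counts were tested with edgeR 4.0.16 (DESeq2 1.42.0 as alternative), with equal library sizes for high-level sites and at least 4 such sites per gene. Coverage signal and unconverted percent were tested with limma 3.58.1 on log2 values centred on library medians. Adjusted p-values are Benjamini-Hochberg over all features. Sites named were the 3 highest WT-shared per member, those in all 4 lists and the highest KO-shared. Scripts were tested on simulated data. No genome of the lists' build was used, so motifs, exons and sequences were not analysed here.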

Additional observations from a re-analysis of the deposited data

How the results depend on the processing

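High-level sites per gene (0 calls) gave 2 with TMM scaling and 371 with the added likelihood ratio test. Sites in all 4 lists (40 calls) gave 68 with the likelihood ratio test, 168 with Fisher's exact test on summed counts and 26 to 42 with a library left out, the lowest without KO 1. Genes pooled over those sites (46 calls) gave 140 with Fisher's exact test and 29 to 49 with a library left out, lowest without KO 1 and KO 2. Gene coverage (430 calls) gave 767 among genes above the median coverage and 58 to 391 with a library left out. The share of WT-shared member sites in neither KO list (79.5%) was 100% at a mean WT level of at least 0.3 and 89.7% for absence from KO 1 alone. The cause of these shifts was not tested.

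Signs turned as follows, all in log2 and none past the threshold. High-level sites of Srsf6 changed by 1.72 with a minimum level of 0.2, and those of Srsf3 by 0.099 with TMM scaling. With a library left out, the Srsf7 site ranged from -0.77 to 0.36, pooled Srsf7 from -0.76 to 0.38, the coverage of Srsf3 from -0.30 to 0.061 and of Srsf9 from -0.31 to 0.055, and the unconverted percent of Srsf2 from -0.0047 to 0.0089 and of Srsf9 from -0.082 to 0.23. Without centring, the unconverted percent changed by -0.30 in Srsf2, -0.033 in Srsf3, -0.12 in Srsf6, -0.096 in Srsf7, -0.23 in Srsf9 and -0.12 in Srsf10, where centred values were positive.

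The labels do not pair the libraries by number, and same-numbered libraries did not deviate together (correlation -0.016 for coverage). With the replicate block, gene coverage gave 778 calls, sites in all 4 lists 53, pooled genes 61, and high-level sites and unconverted percent 0. Depth limits sites whose listing limit in the KO exceeds their WT level.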
